A study of Arabidopsis thaliana with 8 samples.

Results

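The mitochondrially encoded genes of Arabidopsis thaliana were represented on the expression array by 22 probe sets for 15 genes, out of 22746 probe sets that are not controls and 13350 genes with a probe set of their own. A probe set is the group of short probes that reports 1 signal per array, and it was taken here when the array's annotation paired it with a single gene whose symbol begins nad, cox, cob, ccb or orf in lower case or whose locus begins ATMG. The rule found 15 probe sets for 8 nad genes, 2 for cox genes, 4 for ccb genes and 1 for an orf gene, and 0 for cob or for an ATMG locus. All 15 gene names matched a gene on the mitochondrial sequence of the RefSeq gene table (assembly TAIR10.1), which lists 33 protein-coding genes there. Signals from sections of Columbia roots were compared between longitudinal zones numbered 1 to 4, which the submitters call developmental stages, with 2 samples in each zone. Every seedling had grown for 5 days on MS medium and had then been held for 3 hours on a medium without sulfur, so the series has no sulfur-sufficient sample and the comparisons are between zones of a root at low sulfur. The labels do not say which zone contains the tip. Nor do they say whether replicates were separate plants, and the p-values therefore reflect only sample-to-sample spread, part or all of which may be technical.

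Plant mitochondria keep a small genome that encodes core membrane subunits of the respiratory chain and part of the machinery that attaches heme to c-type cytochromes, while most subunits and nearly all factors that replicate, transcribe, splice and edit this genome are made from nuclear genes. The nad genes encode subunits of complex I, the NADH dehydrogenase that passes electrons from NADH to ubiquinone, and the cox genes encode the catalytic core of complex IV, cytochrome c oxidase, which passes electrons to oxygen. The ccb genes encode cytochrome c maturation proteins, and orfX, listed in the gene table as mttB, encodes a membrane protein related to the bacterial translocase subunit TatC. In plant mitochondria poly(A) tails are short-lived and mark a transcript for decay, whereas the standard 2-cycle labelling named in the labels starts cDNA synthesis from an oligo(dT) primer. A nearly complete copy of the mitochondrial genome lies on nuclear chromosome 2 in Columbia, so signals of all these probe sets may include near-identical sequence and are uncertain in that respect.

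The signals are MAS5 intensity values on a linear scale, and the deposited arrays had a common trimmed mean of 249.9 and medians of 57.8 to 79.6. The GAPDH control probe sets had 3'/5' signal ratios of 64.3 and 13.2 in zone 1, 18.5 and 32.2 in zone 2, 14.8 and 26.0 in zone 3, and 29.5 and 17.7 in zone 4. The summed signal of 3 division markers, the Aurora kinase genes AUR1, AUR2 and AUR3, was 2820 and 1450 in zone 1, 914 and 856 in zone 2, 183 and 467 in zone 3, and 1710 and 1210 in zone 4. EXPA7, a root hair expansin gene, averaged 11.2 ± 8.9 in zone 1 and 391 ± 320 in zone 4 (SD, n = 2 each), and no endodermis, xylem, root cap or shoot marker of the lists had a named probe set. Over the 13647 probe sets tested, the mean r with both arrays of zone 1 was 0.849 for zone 2 replicate 1 and 0.754 for zone 2 replicate 2, and zone 3 replicate 2 correlated with zone 2 replicate 2 at 0.916 and with zone 3 replicate 1 at 0.899. Results were therefore also computed without zone 2 replicate 1 and zone 3 replicate 2.

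None of the tested probe sets paired with a single mitochondrially encoded gene passed the tests for a difference between zones. Of all probe sets tested, 26.9% passed across the zones. Outside the rule, a probe set paired with a mitochondrial gene and also with a chromosome 2 locus did pass. It is described under the other observations. Of the 22 probe sets, 15 for 12 genes had a mean signal above 42.5, the bound under which the dimmest 40% of the array was left out. In limma's moderated F-test over the 4 zones 0 of these 15 had an adjusted p under 0.05 (Benjamini-Hochberg over 13647 probe sets). At an unadjusted p under 0.05 the F-test also held 0 of the 15, against 5558 probe sets (40.7%) of all. These shares are not matched for signal. On each array the median log2 signal of the 15 minus that of all probe sets tested was -1.23 to -0.70. The share of all probe sets that passed the F-test was 14.8% with no filter and 34.3% with a filter at 60%. The part of signal level in the low counts was not tested. The smallest adjusted p of the F-test were 0.207 for nad4L, 0.239 for cox1 and 0.358 for cox2, and the largest was 0.885 for nad9. In sections of whole tissue, fewer cells of a type and less RNA per cell cannot be told apart, and this holds for every level given here.

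The pairwise contrasts gave the same count. A probe set passed a contrast when its change reached 2-fold with an adjusted p under 0.05, and 0 of 15 did so in each of the 6 contrasts by limma. The share of all probe sets that passed was 12.1% in zone 2 against zone 1, 38% in zone 3 against zone 1, 14.3% in zone 4 against zone 1, 0% in zone 3 against zone 2, 0.00733% in zone 4 against zone 2 and 2.11% in zone 4 against zone 3. The last 3 backgrounds are low, so a count of 0 lies near them. At an unadjusted p under 0.05, 3 of the 90 contrasts of the 15 probe sets passed, and they belonged to nad4L in zone 2 against zone 1 and in zone 3 against zone 2 and to cox1 in zone 3 against zone 1. Over all probe sets the share with an unadjusted p under 0.05 was 30.1%, 48.7% and 30.8% in zones 2, 3 and 4 against zone 1, 18.1% and 11.4% in zones 3 and 4 against zone 2, and 18.7% in zone 4 against zone 3.

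**Figure D1:**
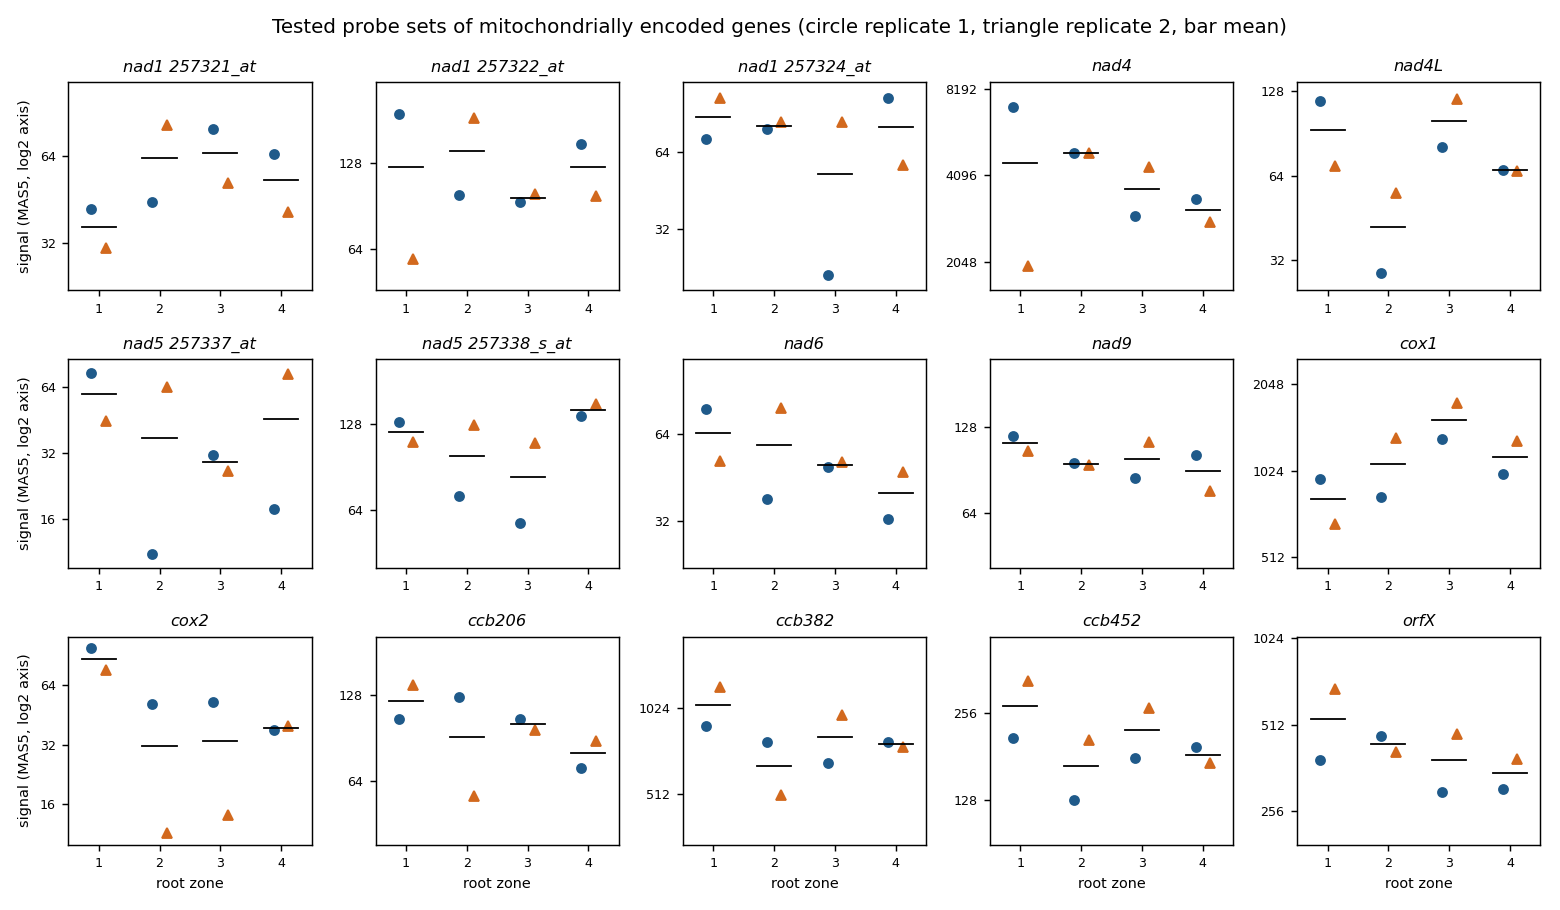
MAS5 signal (log2 axis) of the 15 tested probe sets of mitochondrially encoded genes in zones 1 to 4, with replicate 1 as circles, replicate 2 as triangles and the mean of the 2 as a bar. The 2 arrays of zone 1 for nad4 lie at 7082 and 1983, while cox1 lies higher in both zone 3 arrays (1317 and 1770) than in both zone 1 arrays (963 and 667).

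Among the complex I genes, nad4L was the one with the smallest F-test p. It encodes a small subunit of the membrane arm, and its signals were 117.9 and 69.4 in zone 1, 28.7 and 55.4 in zone 2, 81.0 and 120.4 in zone 3, and 67.4 and 66.6 in zone 4. Both zone 2 arrays lay under every array of the other 3 zones, while the zone 1 and zone 3 arrays overlapped. Zone 2 averaged 42.0 ± 19 against 93.6 ± 34 in zone 1 (SD, n = 2 each), a log2 difference of -1.18 ± 0.52 (SE) with an adjusted p of 0.154 by limma. Zone 3 averaged 101 ± 28 against the 42.0 of zone 2, a log2 difference of 1.31 ± 0.52 with an adjusted p of 0.224 by limma. The nad4L gene therefore had a low value in zone 2 that did not pass the test.

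For nad4, an antiporter-like subunit of the membrane arm, the zone 1 arrays enclosed all the others. Its signals were 7082 and 1983 in zone 1, 4898 and 4904 in zone 2, 2957 and 4375 in zone 3, and 3380 and 2811 in zone 4. The arrays of zone 2 lay above those of zones 3 and 4, and the 3.57-fold spread within zone 1 was the widest within any zone for this probe set. Zone 4 averaged 3100 ± 400 against 4530 ± 3600 in zone 1. Taken between means of log2 signals, the difference was -0.28 ± 0.49 (adjusted p 0.736, limma). The sign of that difference rested on 1 array: without zone 1 replicate 1 it was 0.64, and without zone 1 replicate 2 it was -1.20 with an adjusted p of 0.0496. Whenever 1 array of a zone is left out, the remaining one is assumed to vary like the arrays of the other zones, so these values rest on a single sample of that zone. Likewise nad4 in zone 2 against zone 1 had a log2 difference of 0.39 with all arrays, 1.31 (adjusted p 0.044, limma) without zone 1 replicate 1 and -0.53 without zone 1 replicate 2.

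The zone means of nad9 lay closest together. The nad9 gene, which encodes a subunit of the peripheral arm, had 118.6 and 105.5 in zone 1, 96.1 and 94.6 in zone 2, 84.7 and 113.1 in zone 3, and 102.5 and 76.5 in zone 4. Its zone means spanned 0.34 on the log2 scale, the smallest span of the 15 tested probe sets, and both zone 2 arrays and both zone 4 arrays lay under both zone 1 arrays. For nad6, a membrane arm subunit, the signals were 78.2 and 51.5 in zone 1, 38.1 and 79.0 in zone 2, 49.1 and 51.3 in zone 3, and 32.5 and 47.5 in zone 4. The nad6 arrays of zones 3 and 4 lay under both zone 1 arrays, and those of zone 2, at 38.1 and 79.0, lay far apart. The nad6 probe set is 1 of 4 with an ID ending in _s_at, a class whose probes can match more than 1 transcript.

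Several probe sets were present for 2 complex I genes, 7 for nad1 and 2 for nad5, and these did not vary alike. The mRNAs of nad1, nad2 and nad5 are put together by trans-splicing from separately transcribed pieces. Of the nad1 probe sets, 257322_at had 189.1 and 59.5 in zone 1, 99.2 and 183.1 in zone 2, 93.9 and 99.5 in zone 3, and 148.6 and 98.3 in zone 4, so that the zone 1 arrays enclosed the others. For nad1 257321_at the signals were 41.9 and 30.8 in zone 1, 44.3 and 82.2 in zone 2, 79.7 and 51.7 in zone 3, and 65.1 and 41.0 in zone 4. Both zone 2 arrays and both zone 3 arrays of that nad1 probe set lay above zone 1, and zone 3 averaged 65.7 ± 20 against 36.3 ± 7.8 in zone 1, a log2 difference of 0.84 ± 0.60 (adjusted p 0.287, limma). For nad1 257324_at the signals were 71.8 and 104.0 in zone 1, 78.4 and 83.6 in zone 2, 21.1 and 84.0 in zone 3, and 103.6 and 56.6 in zone 4.

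In nad1 257324_at the low zone 3 value came from replicate 1 alone, and replicate 2 lay among the zone 1 arrays. Its log2 difference in zone 3 against zone 1 was -1.04 ± 0.65 (adjusted p 0.229, limma), opposite in sign to that of nad1 257321_at. Without zone 3 replicate 2 it was -2.03 with an adjusted p of 0.0277 by limma, which passed with 1 zone 3 array whose spread came from the other zones, and without zone 3 replicate 1 it was -0.04. The difference between these nad1 probe sets was not tested. The other 4 nad1 probe sets were below the bound on mean signal, at means of 39.0 for 257323_at, 28.2 for 257329_at, 26.7 for 257327_at and 19.7 for 257325_at over the 8 arrays.

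For nad5, another antiporter-like membrane subunit, 257338_s_at had signals of 129.8 and 110.2 in zone 1, 71.5 and 126.1 in zone 2, 57.7 and 109.4 in zone 3, and 136.1 and 149.9 in zone 4. Both zone 4 arrays of this nad5 probe set lay above all others, and zone 4 averaged 143 ± 9.7 against 83.6 ± 37 in zone 3, a log2 difference of 0.85 ± 0.44 (adjusted p 0.344, limma). The other nad5 probe set, 257337_at, had 74.6 and 44.8 in zone 1, 11 and 63.9 in zone 2, 31.4 and 26.5 in zone 3, and 17.8 and 73.4 in zone 4. Its zone 2 and its zone 4 arrays each enclosed both zone 3 arrays. This probe set lay just inside the bound with a mean of 42.9, and it fell under the 40th percentile of its own array on 4 of the 8 arrays.

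**Figure D2:**
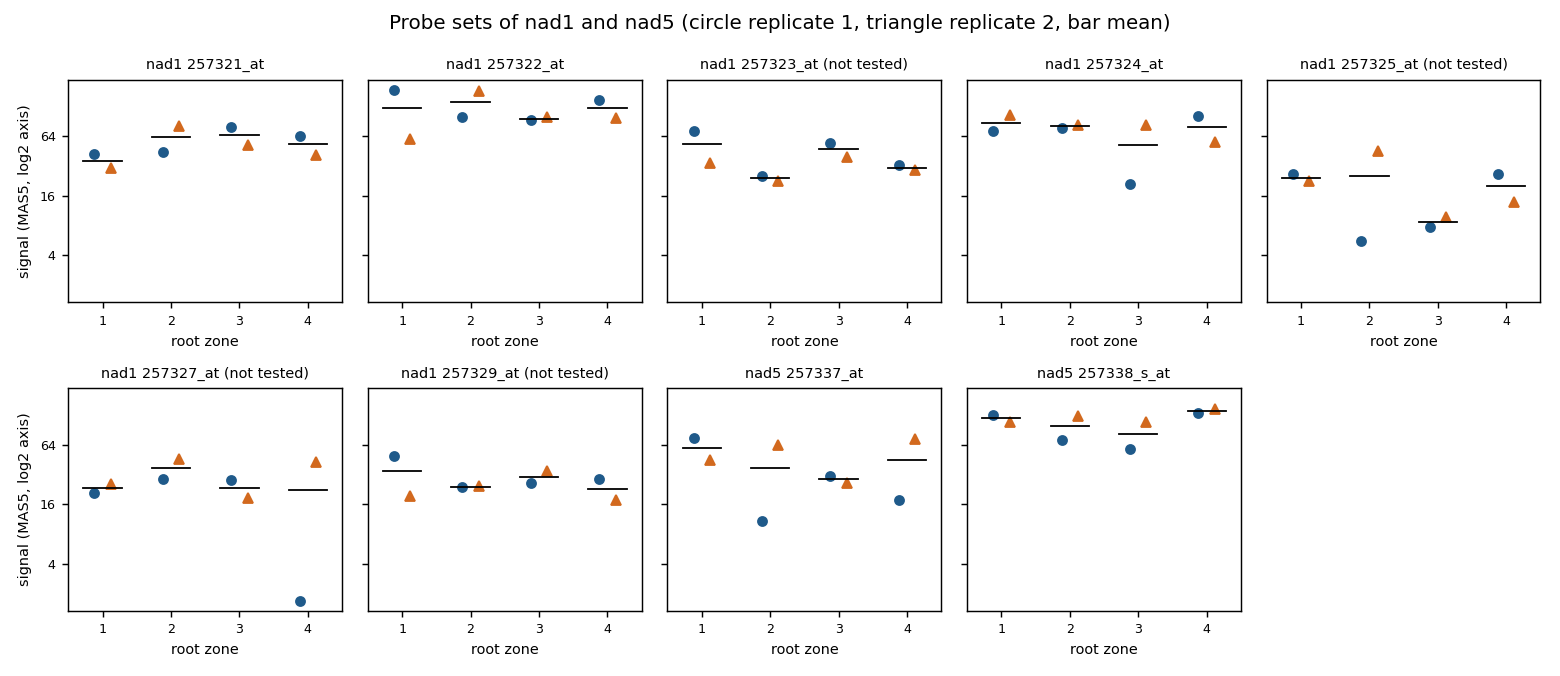
MAS5 signal (log2 axis) by zone of the 7 probe sets of nad1 and the 2 of nad5, with replicate 1 as circles, replicate 2 as triangles and the mean as a bar; the panels of probe sets below the bound on mean signal are marked as not tested. The nad1 probe sets differ in which zone is highest, zone 3 for 257321_at, zone 2 for 257322_at and zone 1 for 257324_at.

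The 2 complex IV genes with a probe set of their own had zone means on opposite sides of zone 1, and neither passed a test with all arrays. For cox1, the subunit that holds the oxygen-reducing site, the signals were 963 and 667 in zone 1, 831 and 1331 in zone 2, 1317 and 1770 in zone 3, and 997 and 1300 in zone 4. Both zone 3 and both zone 4 arrays of cox1 lay above both zone 1 arrays, and the zone 2 arrays spread across them. The order of its zone means was zone 3 (1540 ± 320), zone 4 (1150 ± 210), zone 2 (1080 ± 350) and zone 1 (815 ± 210; SD, n = 2 each), and no neighbours in that order passed a contrast. Zone 3 against zone 1 was 1.91-fold, a log2 difference of 0.93 ± 0.35 with a 95% interval of 0.15 to 1.71 and an adjusted p of 0.0577 by limma. Without zone 1 replicate 1 this cox1 difference was 1.20 with an adjusted p of 0.0444 by limma, which passed with 1 zone 1 array and the spread of the other zones, and over the arrays left out in turn it ran between 0.66 and 1.20.

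The cox2 gene encodes the subunit that takes electrons from cytochrome c, and its signals were 98.8 and 76.3 in zone 1, 51.4 and 11.4 in zone 2, 52.5 and 14.0 in zone 3, and 38 and 40 in zone 4. All arrays of zones 2, 3 and 4 lay under both zone 1 arrays. Zone 2 averaged 31.4 ± 28 against 87.5 ± 16 in zone 1, a log2 difference of -1.84 ± 0.91 (adjusted p 0.203, limma), which was the largest difference of the 15 tested probe sets in any contrast. The cox2 probe set was dim, with a mean of 47.8, and its signal was under the 40th percentile of its array on 4 of the 8 arrays. Without zone 2 replicate 1 and zone 3 replicate 2, only the lowest zone 2 array remained, and the cox2 difference in zone 2 against zone 1 was -2.93 with an adjusted p of 0.0441 by limma. That value rests on 1 dim zone 2 array at 11.4, under the 40th percentile of its array, with the spread taken from zones 1 and 4, so it gives no replicated difference. Without zone 2 replicate 2 the cox2 difference was -0.76.

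All 3 tested cytochrome c maturation genes had their highest mean in zone 1, and none passed a test. The ccb382 gene, listed as ccmFN1 and encoding part of the complex that joins heme to apocytochrome c, had 886 and 1206 in zone 1, 775 and 511 in zone 2, 655 and 965 in zone 3, and 780 and 750 in zone 4. Both zone 2 and both zone 4 arrays of ccb382 lay under both zone 1 arrays. Zone 2 averaged 643 ± 190 against 1050 ± 230 in zone 1, a log2 difference of -0.72 ± 0.34 (adjusted p 0.189, limma). The ccb452 gene, listed as ccmFC and encoding another part of the same complex, had 210.3 and 331.0 in zone 1, 127.6 and 207.4 in zone 2, 179.5 and 267.1 in zone 3, and 195.7 and 172.0 in zone 4. Its zone 2 and zone 4 arrays also lay under both zone 1 arrays, with a log2 difference of -0.70 ± 0.39 in zone 2 against zone 1 (adjusted p 0.256, limma).

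The ccb206 gene, listed as ccmB and encoding a membrane subunit of a maturation transporter, had 105.8 and 138.0 in zone 1, 126.2 and 57.1 in zone 2, 105.6 and 96.9 in zone 3, and 71.4 and 88.7 in zone 4. Its zone 3 and zone 4 arrays lay under both zone 1 arrays, while its zone 2 arrays spread across most of the range. Zone 4 averaged 80.0 ± 12 against 122 ± 23 in zone 1, a log2 difference of -0.60 ± 0.46 (adjusted p 0.399, limma). The translocase-related orfX had 385.1 and 682.5 in zone 1, 468.0 and 411.3 in zone 2, 298.2 and 474.0 in zone 3, and 306.6 and 390.2 in zone 4. The zone 1 arrays of orfX overlapped those of every other zone, and zone 4 averaged 348 ± 59 against 534 ± 210 in zone 1, a log2 difference of -0.57 ± 0.38 (adjusted p 0.339, limma).

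The 7 probe sets below the bound were those of nad7, nad2 and ccb203 and the 4 of nad1 given above. The nad7 probe set, for a peripheral arm subunit, had a mean of 14.0 over the 8 arrays with a lowest signal of 2.76 and a highest of 24.9, and it lay under the 40th percentile of its array on all 8. The nad2 probe set, for a membrane arm subunit, had a mean of 12.5 and signals of 3.5 and 5.7 in zone 1, 42.0 and 4.2 in zone 2, 9.0 and 11.7 in zone 3, and 2.8 and 21.2 in zone 4. The ccb203 probe set, listed as ccmFN2, had a mean of 32.1 and signals of 7.75 to 50.9. These signals were given no test, and a low signal of a probe set does not show that its transcript is absent. Just outside the bound lay nad1 257323_at at 39.0, and just inside it nad5 257337_at at 42.9 and cox2 at 47.8.

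The direction of the differences leaned toward lower values away from zone 1, by small amounts. The median log2 difference of the 15 tested probe sets was -0.23 in zone 2 against zone 1, -0.27 in zone 3 against zone 1 and -0.43 in zone 4 against zone 1, beside medians of 0.00, -0.01 and 0.00 over all probe sets tested. It was 0.09 in zone 3 against zone 2, -0.08 in zone 4 against zone 2 and -0.14 in zone 4 against zone 3, beside -0.05, 0.05 and 0.10 over all probe sets. The differences were below 0 for 11, 12 and 11 of the 15 in the contrasts of zones 2, 3 and 4 against zone 1, with nad1 257321_at and cox1 above 0 in all of them. The highest zone mean was in zone 1 for 9 of the 15 (60%), against 39% of all probe sets tested. The median signal of the tested members was 119 and 106 in zone 1, 96.1 and 94.6 in zone 2, 84.7 and 109 in zone 3, and 104 and 88.7 in zone 4, so that the arrays of zones 1 and 3 overlapped. These genes share arrays and are not replicates, so no p is given for the medians.

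Counts of probe sets whose arrays did not overlap lay near the share over all probe sets in zone 4 against zone 1. They were below it in the other contrasts. The 15 probe sets stand for 12 genes and were dimmer at the median than all probe sets tested, so the shares are not matched for signal. In zone 2 against zone 1, 6 of the 15 (40%) did not overlap, against 59.4% of all probe sets. In zone 3 against zone 1, 7 of 15 (46.7%) did not overlap, against 69.7%, and in zone 4 against zone 1, 9 of 15 (60%) did not, against 61.6%. In zone 3 against zone 2 the count was 2 of 15 (13.3%, against 51.1%), in zone 4 against zone 2 it was 4 of 15 (26.7%, against 49.3%), and in zone 4 against zone 3 it was 5 of 15 (33.3%, against 53.7%).

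The data do not show that these genes were level across the zones. The 95% intervals of the differences had a median half-width of 1.08 on the log2 scale, or 2.12-fold, against 0.92 over all probe sets. Of the 90 intervals, 84 held a 2-fold difference in one direction or the other, and 6 lay within 2-fold both ways. The medians over members of the absolute log2 difference between the 2 arrays of a zone were 0.53, 0.82, 0.57 and 0.35 in zones 1 to 4, beside 0.52, 0.40, 0.43 and 0.33 over all probe sets tested. The spread between samples of the mitochondrial genes was thus wider than the general one in zone 2, where nad5 257337_at, cox2 and ccb206 had arrays 5.79-fold, 4.51-fold and 2.21-fold apart.

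**Figure D3:**
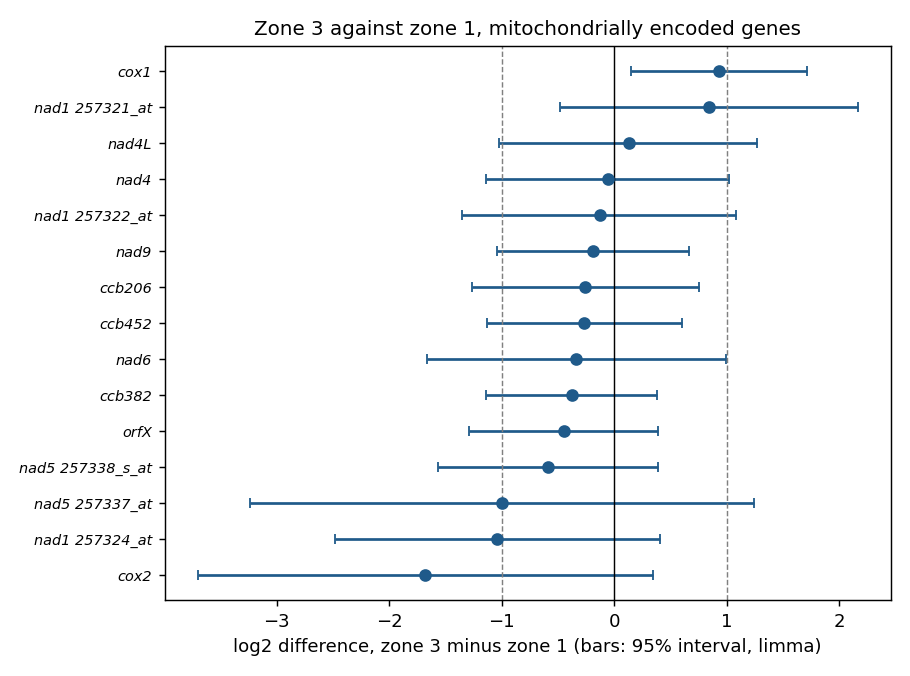
Log2 difference of zone 3 minus zone 1 for the 15 tested probe sets, with bars for the 95% interval from limma and dashed lines at a 2-fold difference in each direction. Only the interval of cox1 (0.15 to 1.71) lies wholly to one side of 0, and the interval of cox2 is among the widest.

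Genes that neighbour each other on the mitochondrial genome were set side by side. In the gene table, ccmFC (ccb452), nad4 and mttB (orfX) follow each other, and in zone 2 against zone 1 their log2 differences were -0.70 ± 0.39, 0.39 ± 0.49 and -0.22 ± 0.38. The neighbours cox2 and ccmB (ccb206) had -1.84 ± 0.91 and -0.51 ± 0.46 in zone 2 against zone 1, and -1.68 and -0.26 in zone 3 against zone 1. The gene table also lists nad1 next to cox1, but nad1 is transcribed in separate pieces and where its probe sets lie is not known here. In zone 2 against zone 1 cox1 had 0.39 ± 0.35. The nad1 probe sets had 0.75 ± 0.60 (257321_at), 0.35 ± 0.55 (257322_at) and -0.09 ± 0.65 (257324_at) in that contrast. In zone 3 against zone 1 cox1 had 0.93, and these nad1 probe sets had 0.84, -0.13 and -1.04 in the same order. None of these differences passed the test, and the differences between neighbours were not tested.

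The nuclear genes whose products join the same complexes were set beside them. Named probe sets were present for 7 of 17 listed loci of complex I, 4 of 14 of complex II and 11 of 16 of complex III and cytochrome c. For complex IV they were present for 6 of 13 loci and for complex V for 2 of 9, so the lists are covered in part. In zone 3 against zone 1, 30 probe sets for nuclear subunits of complexes I to V and cytochrome c were tested. Of these, 6 (20%) passed as higher and 0 as lower, with a median log2 difference of 0.56. Of all probe sets 38% passed, 18% as higher and 20% as lower, so the share that passed as higher lay near that of all. Those that passed in complex I were AT5G11770, at 5430 ± 1200 in zone 3 against 2010 ± 640 in zone 1 (2.73-fold, adjusted p 0.00516, limma), and FRO1, at 4360 ± 430 against 1970 ± 150 (2.21-fold, adjusted p 0.0091, limma). In complex II, succinate dehydrogenase, which has no gene among the members, SDH1-2 was 4.91-fold and SDH2-1 2.89-fold higher in zone 3. The cytochrome c gene CYTC-2 was 2.75-fold higher and the complex IV subunit gene AT3G62400 2.03-fold higher in zone 3. For complex V, the ATP synthase, 0 of 2 passed, and AT5G47030 was at 1.42-fold and AT1G51650 at 1.3-fold. Without zone 2 replicate 1 and zone 3 replicate 2 the median of the 30 in zone 3 against zone 1 was 0.59. Fewer of the 30 then passed, as did fewer of all probe sets. In zone 2 against zone 1, 2 of the 30 passed, AT5G11770 and SDH2-1, both higher, and in zone 4 against zone 1 only SDH2-1 passed, higher at 2.16-fold. These shares of 6.67% and 3.33% lie below the 12.1% and 14.3% of all probe sets that passed those contrasts.

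Other nuclear lists held fewer named probe sets. These covered 5 of 13 listed loci of alternative respiration and 7 of 36 of the mitochondrial DNA and RNA factors, so most of those factors were not measured here. NDB2, an alternative NADH dehydrogenase that bypasses complex I, was 4.20-fold higher in zone 3, at 1610 ± 750 against 379 ± 160 in zone 1 (adjusted p 0.00439, limma), and was the only one of 4 tested alternative respiration genes to pass, a share of 25% beside 38% of all probe sets. Of 6 tested factors that act on mitochondrial DNA or RNA, 4 passed as lower in zone 3 against zone 1 and 0 as higher, with a median log2 difference of -1.93, where 20% of all probe sets passed as lower and 18% as higher. AT5G14580, a mitochondrial polynucleotide phosphorylase that trims and degrades RNA, was at 25.9 ± 3.3 in zone 3 against 308 ± 110 in zone 1 (log2 difference -3.53 ± 0.50, adjusted p 6.2e-04, limma). AT5G46920, an intron maturase, had a log2 difference of -2.59 ± 0.41, and AT1G32580, an RNA editing factor of the MORF family, one of -2.08 ± 0.43. OSB1, a single-stranded DNA binding protein, was also lower (-1.77 ± 0.47) and was named after its values were seen. The nuclear cytochrome c maturation gene CCMH, at 63.6 ± 21 in zone 3 against 123 ± 44 in zone 1, did not pass (adjusted p 0.117, limma). The division markers AUR1, AUR2 and AUR3 were also lower in zone 3 than in zone 1, by log2 differences of -2.43, -3.35 and -3.24, and the part of cell division in these differences was not tested.

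The genes of the other organelle genome were measured on the same arrays. Of 64 tested plastid-encoded probe sets, 19 passed as lower in zone 3 against zone 1 and 1 as higher, psbA, which was named after its values were seen, with a median log2 difference of -0.85. Together these are 31.2% of the 64, against 38% of all probe sets, of which 20% passed as lower. The ribosomal protein gene rps3 was at 519 ± 130 in zone 3 against 2870 ± 1300 in zone 1 (adjusted p 0.00119, limma), the RNA polymerase subunit gene rpoC1 at 276 ± 13 against 1290 ± 720 (adjusted p 0.00259, limma), and the photosystem II gene psbH at 16.7 ± 15 against 69.7 ± 11 (adjusted p 0.0375, limma). That count of 19 depended on single arrays. Leaving out replicate 1 or replicate 2 of zone 1 gave 9 or 30, and leaving out replicate 1 or replicate 2 of zone 3 gave 10 or 12. Without both zone 2 replicate 1 and zone 3 replicate 2 it was 12. The difference between the mitochondrial and the plastid genes was not tested.

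**Figure D4:**
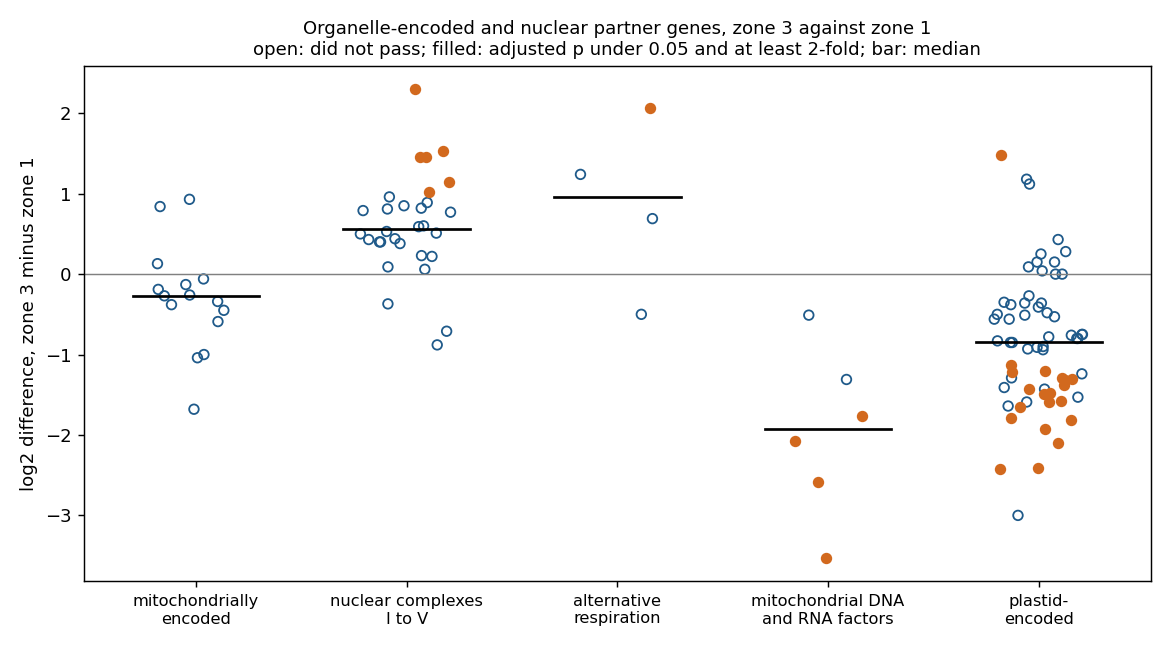
Log2 difference of zone 3 minus zone 1 for tested probe sets of mitochondrially encoded genes, nuclear subunits of complexes I to V and cytochrome c, alternative respiration, mitochondrial DNA and RNA factors, and plastid-encoded genes; filled points passed (2-fold or more, adjusted p under 0.05), open points did not, and bars are medians. The mitochondrially encoded genes have 0 of 15 points filled around a median of -0.27. The nuclear subunits have 6 of 30 filled, all above 0, around 0.56, and the DNA and RNA factors 4 of 6, all below 0, around -1.93. Of all probe sets tested 38% passed, 18% as higher and 20% as lower.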

How the data were processed

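Total RNA of 8 root samples, 2 for each of 4 zones, was hybridised to Affymetrix arrays after a 2-cycle labelling named in the labels' protocols. The deposited intensity values are 1 signal per probe set and array, made with MAS5 per the submitters' processing notes; the version is not given in the sources used here. Scaling had been done, since the mean trimmed by 2% at each end was 249.9 on each array. Present calls were not used here. Precision is limited by how few arrays there are.

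Of 22810 probe sets, 64 controls were left out; 13513 of the others had 1 gene in the platform annotation, 503 several and 8730 none here. Signals were taken as log2 with no offset, the lowest 40% of mean signal was left out, and a model with a mean for each zone was fitted to all 8 arrays with limma 3.58.1 under R 4.3.3 (eBayes with trend, 4 residual and 6.5 prior degrees of freedom), with Benjamini-Hochberg adjustment over 13647 probe sets for each two-sided contrast and for the F-test. The fit was tested on simulated arrays. A ± after a signal is the SD of 2 arrays, and after a log2 difference the moderated SE. Zone averages are means of linear signals, while log2 differences and folds come from means of log2 signals, so they need not match. Members and lists were chosen with earlier results of these data known. Named were all tested members, up to 3 genes of each nuclear or plastid list with the largest difference among those that passed, and otherwise up to 2; the dim nad7, nad2, ccb203 and nad1 probe sets were added to account for every member. A probe set with several genes was not named. Replicate numbers were not used to pair samples. Replicate differences correlated at -0.19 to 0.04 between zones, which shows no shared effect of the number but cannot tell how samples were taken. Alternatives were quantile normalization, centring, a filter at 60% or none, raising dim signals to each array's 40th percentile, adding 32 before the log, a prior without trend or robust, a replicate block, no minimum fold, and each array left out. Plots used Python 3.11.15 and matplotlib 3.10.9.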

Additional observations from a re-analysis of the deposited data

How the results depend on the processing

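The count of mitochondrially encoded probe sets that passed the F-test was 0 under all alternatives, with a smallest adjusted p of 0.0735 (limma). It was also 0 in the contrasts of zones 3 and 4 against zone 2 and in that of zone 4 against zone 3, and with a replicate block it was 0 in every test. With each array left out in turn, which leaves a zone with 1 sample assumed to vary like the others, the counts ran from 0 to 1 in zones 2, 3 and 4 against zone 1. The one that passed was nad4 in zone 2 against zone 1 without zone 1 replicate 1 (log2 difference 1.31), in zone 3 against zone 1 cox1 without zone 1 replicate 1 (1.20) or nad1 257324_at without zone 3 replicate 2 (-2.03), and nad4 in zone 4 against zone 1 without zone 1 replicate 2 (-1.20). An alternative added after the data were seen left out zone 2 replicate 1 and zone 3 replicate 2 together, and the count was then 1 (cox2) in zone 2 against zone 1 and 1 (nad1 257324_at) in zone 3 against zone 1. The sign of nad4 turned in zone 2 against zone 1 without zone 1 replicate 2 (-0.53) and in zone 4 against zone 1 without zone 1 replicate 1 (0.64).

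The median log2 signal of the members on an array had a within-zone SD of 0.16. The median log2 differences of the members between zones were also computed with 1 array left out. Against zone 1 they ran from -0.45 to -0.05 in zone 2, -0.45 to -0.09 in zone 3 and -0.43 to -0.31 in zone 4. Against zone 2 they ran from -0.13 to 0.11 in zone 3 and -0.18 to 0.11 in zone 4. They ran from -0.34 to 0.06 in zone 4 against zone 3. With arrays centred, which moved the median of all probe sets by -0.36 in zone 4 against zone 1, the medians of zone 4 were -0.80 against zone 1, -0.34 against zone 2 and -0.39 against zone 3; relative to all probe sets they were -0.43, -0.13 and -0.24. Quantile normalization gave -0.29 in zone 4 against zone 2. The filter at 60%, which left 5 members, gave 0.34 in zone 3 and 0.11 in zone 4 against zone 2. Without zone 2 replicate 1 and zone 3 replicate 2 the medians were -0.05 in zone 2 against zone 1, -0.21 in zone 3 against zone 2 and 0.06 in zone 4 against zone 3. The cause was not tested.

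In zone 3 against zone 1, the count of nuclear complex genes that passed as higher was 3 without those 2 arrays and ran from 4 to 7 with 1 array left out, and that of plastid-encoded genes that passed as lower was 12 there and ran from 9 to 30 with 1 array left out. The main fit did not pair samples by replicate number, and with a replicate block the F-test calls over all probe sets were 3239, against 3673 without. Dim signals limit cox2 and nad5 257337_at, under the 40th percentile of their array on 4 of 8 arrays.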

Other observations

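In zone 1 the order of the 2 arrays differed by family in these values. Of the 15 nad probe sets 11 were higher in replicate 1, as were both cox probe sets, while all 4 ccb probe sets and orfX were higher in replicate 2. These counts include nad and ccb probe sets below the bound on mean signal. The nad count also holds 7 probe sets of 1 gene, nad1, which are not independent. Over all tested probe sets, none of them below the bound, 53.9% were higher in zone 1 replicate 1. The split was noticed after the values were seen, 2 arrays give it no test, and the GAPDH 3'/5' ratio of these arrays was 64.3 in replicate 1 and 13.2 in replicate 2.

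Outside the rule, 4 probe sets were paired in the annotation with a mitochondrial gene and with a second locus on chromosome 2, so none is named. Of these, 2 were above the bound on mean signal. The brighter one had 442.9 and 521.1 in zone 1, 216.9 and 261.1 in zone 2, 183.9 and 187.9 in zone 3, and 170.4 and 178.3 in zone 4. All arrays of zones 2 to 4 lay under both zone 1 arrays, and it passed the F-test (adjusted p 0.0176, limma). It was lower in zone 3 against zone 1 (log2 difference -1.37 ± 0.31, adjusted p 0.00621, limma) and in zone 4 against zone 1 (-1.46 ± 0.31, adjusted p 0.0125, limma). Which locus this signal comes from cannot be told apart. The other tested one had an F-test adjusted p of 0.774 (limma).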
